A study of Mus musculus with 35 samples.

Results

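Primary mouse embryonic fibroblasts (MEFs) of the C57BL6/J strain were compared after 1 h in medium with methyl methanesulfonate (MMS) and after 1 h in medium without it. The comparison takes the 4 MMS arrays and the 4 control arrays taken at 1 h, 8 of the 35 arrays of the series, and covers every gene measured. MMS-treated cells received fresh medium with MMS at 40 µg/mL, and control cells received fresh medium alone, so both groups had a medium change 1 h before harvest. The cells came from embryos of day 15.5 and 2 passages per the labels, and per the methods the embryos had lost head and liver. The methods give another embryo age and passage number than the labels do. The other arrays hold control cells at 0 h, before the medium change, and both groups at 8, 24 and 72 h. The replicates are called biological, but nothing states whether a replicate was its own litter or culture, and the spread behind the p-values may therefore be technical.

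MMS is a methylating agent that modifies bases of DNA and also reacts with RNA and with protein thiols. Methylated bases are removed mainly by base excision repair, and damage that persists activates p53. Cells under chemical stress also use faster routes: MAP kinases and serum response factor switch on immediate early genes, NRF2 switches on antioxidant genes once its inhibitor KEAP1 is modified, and phosphorylation of the translation factor eIF2 alpha increases the translation of ATF4. A change of medium alone induces immediate early genes in fibroblasts. The question of the comparison is which mRNAs differ after MMS beyond what 1 h in fresh medium gives.

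In the model of all 35 arrays, few genes were called after 1 h, and nearly all of these were higher in MMS-treated cells. Of 14135 genes tested, 51 were higher, 0.361% of the genes tested, and 4 were lower, 0.0283%, at an adjusted p under 0.05 (limma, 1 model of all 35 arrays, two-sided, Benjamini-Hochberg over all genes). The genes higher than in the 1 h control include stress response regulators (Ddit3, Atf4, Gadd45a, Gadd45b, Ppp1r15a), immediate early genes (Csrnp1, Junb, Trib1, Arc), MAP kinase phosphatases (Dusp1, Dusp2, Dusp5), antioxidant genes (Hmox1, Srxn1) and a zinc exporter (Slc30a1). Set against control at 0 h, which adds the medium change, 42 of the 51 were called higher (limma). Ddit3, Atf4 and Gadd45a were not, and their control means at 1 h lay below those at 0 h. The differences were small: the median fold was 1.47, the range 1.20 to 2.45, and 5 genes (Lce1f, Taf7, H3f3b, Ccdc71l and Dusp2) were at least 2-fold higher. In 49 of the 51 all MMS arrays lay above all control arrays, as they did in 4.69% of all genes, and the exceptions were Zbtb7a and Sesn2. All 4 lower genes had every MMS array below every control array, as 3.69% of all genes did. Without a correction for the number of genes, 608 genes were higher (4.3%) and 447 lower (3.16%) at a p under 0.05. These counts depended on the model. The 8 arrays at 1 h alone gave 1981 genes at that p in either direction, against 1055 here (limma). With array weights 327 genes were called higher and 130 lower. The median difference over all genes was -0.003 on the log2 scale.

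**Figure D1:**
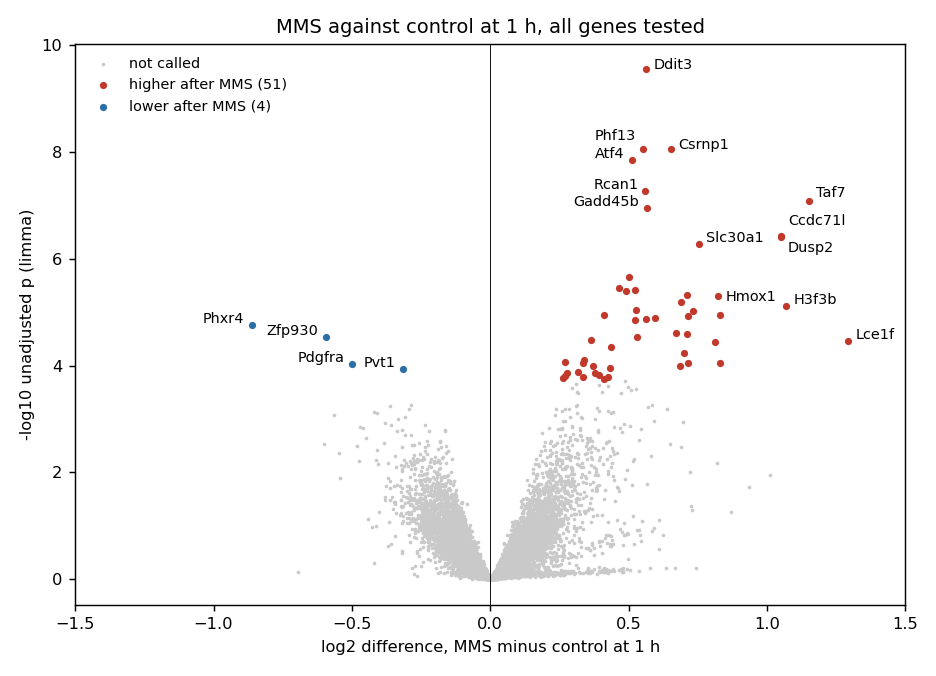
Each point is 1 of the 14135 genes tested, with the log2 difference of MMS minus control at 1 h on the x axis and -log10 of the unadjusted limma p on the y axis. The 51 genes called higher are red and the 4 called lower are blue, and Ddit3 has the smallest p while Lce1f has the largest difference.

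Signals are log2 values of the deposited table, and the number of arrays limits their precision. The fibroblast marker mean over 12 genes lay between 11.59 and 11.67 on all 8 arrays, while the macrophage marker mean over 14 genes lay between 4.63 and 4.84. One MMS array stood apart. The mean of 27 intestinal epithelium markers was 7.10 on MMS replicate 3 against 4.71 to 4.78 on the other MMS arrays, and 5.69 on control replicate 3 against 4.81 to 5.35 on the other controls. On MMS replicate 3, 17 of these markers exceeded the mean of the other MMS arrays by more than 1 log2 unit, and on control replicate 3, 7 of them exceeded that of the other controls. No intestinal marker was called at 1 h (limma), and at an unadjusted p under 0.05 the count was also 0, where 4.3% of all genes were higher and 3.16% lower. High values on single arrays widen the spread of these markers, so these counts cannot decide whether the groups differ. Of the 27 differences 20 were positive, as 6905 of the 14135 over all genes were, with a median of 0.18 against -0.003. Without both arrays numbered 3, the differences were called for 16 genes, all among the 51, and for 0 lower genes.

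The calls depended on which arrays were present. Leaving out 1 of the 8 arrays at a time gave 20 to 52 higher genes, and 18 of the 51 were called in all 8 such fits. The lowest number, 20, came without MMS replicate 3. It was 26 when control replicate 3 was left out, 30 or 31 when control replicate 1 or 2 was, and 32 when MMS replicate 2 was. The 18 genes called each time were Atf4, Ccdc71l, Csrnp1, Ddit3, Dusp2, Gadd45a, Gadd45b, H3f3b, Hmox1, Phf13, Pmaip1, Ppp1r15a, Rcan1, Slc30a1, Snhg16, Taf7, Usp17la and Zfand2a. Usp17la entered the test only through its mean in MMS at 1 h, so its place among them is a description. None of the 4 lower genes was called in all 8 fits, and without MMS replicate 3 no gene was called lower (limma, 686 genes in either direction at an unadjusted p under 0.05). With control replicate 3 left out 1 gene was called lower, and with MMS replicate 2 left out 2 were.

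The stretches before the start sites of 5 higher genes are shown because they hold, exactly, a motif that early stress regulators are known to bind. They are the 250 bases before the start site from RefSeq (GRCm38.p6), written 5′ to 3′ on the gene's strand. Capitals mark TGACGTCA, the cAMP response element bound by CREB and ATF proteins, in Ppp1r15a (chr7:45526269-45526518, minus strand), Dusp1 (chr17:26508473-26508722, minus strand), Zfand2a (chr5:139484492-139484741, minus strand) and Epha2 (chr4:141300971-141301220, plus strand). In Srxn1 (chr2:152105274-152105523, plus strand) they mark both matches to TGANTCA, the AP-1 element that also forms the core of many antioxidant response elements.
Ppp1r15a: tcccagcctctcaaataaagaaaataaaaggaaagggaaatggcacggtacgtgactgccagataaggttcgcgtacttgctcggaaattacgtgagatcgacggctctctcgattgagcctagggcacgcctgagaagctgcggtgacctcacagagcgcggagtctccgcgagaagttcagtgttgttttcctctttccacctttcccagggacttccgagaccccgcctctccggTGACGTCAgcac
Dusp1: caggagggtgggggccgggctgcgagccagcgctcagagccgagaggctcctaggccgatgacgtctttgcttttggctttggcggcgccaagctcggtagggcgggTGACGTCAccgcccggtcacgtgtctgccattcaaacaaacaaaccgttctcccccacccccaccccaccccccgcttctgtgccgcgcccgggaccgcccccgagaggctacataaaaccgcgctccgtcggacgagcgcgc
Zfand2a: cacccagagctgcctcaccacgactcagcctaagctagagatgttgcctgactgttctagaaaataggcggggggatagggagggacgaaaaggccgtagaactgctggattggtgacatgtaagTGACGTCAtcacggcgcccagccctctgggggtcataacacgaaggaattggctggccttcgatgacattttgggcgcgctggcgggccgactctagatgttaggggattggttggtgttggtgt
Epha2: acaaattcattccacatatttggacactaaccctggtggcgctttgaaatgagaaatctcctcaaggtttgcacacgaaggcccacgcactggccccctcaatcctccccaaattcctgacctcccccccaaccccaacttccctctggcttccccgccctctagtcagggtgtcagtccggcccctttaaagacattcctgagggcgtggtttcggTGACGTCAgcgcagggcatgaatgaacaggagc
Srxn1: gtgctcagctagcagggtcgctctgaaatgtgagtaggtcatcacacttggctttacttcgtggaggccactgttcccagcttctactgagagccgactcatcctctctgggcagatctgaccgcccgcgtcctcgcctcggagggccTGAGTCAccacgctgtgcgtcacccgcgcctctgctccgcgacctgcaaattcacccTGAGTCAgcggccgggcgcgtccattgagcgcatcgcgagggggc

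A promoter window of 300 bases, 250 before and 50 after the start site, was listed for 41 of the 51 higher genes and for 11317 of the genes tested. Both strands were searched, and a window can hold several motifs or motifs that overlap. TGACGTCA was found in 4 of the 41 (9.76%) and in 2.97% of all windows. The antioxidant element TGACNNNGC was found in 13 of the 41 (31.7%) and in 14.4% of all, and among the 13 were Srxn1, Mafg, Slc30a1, Ppp1r15a, Dusp1, Dusp5 and Ccdc71l. TATAAA was found in 17.1% against 8.24%, the CArG box of serum response factor in 4.88% (Acta1 and Dusp5) against 1.43%, and TGANTCA in 7.32% (Ddit3, Klhl21 and Srxn1) against 5.43%. GGGCGG was present in 70.7% against 61.0% and CCAAT in 46.3% against 38.1%. GAANNTTC of heat shock factors stood in 1 of the 41 (Rcan1) against 5.76% of all, the NF-kappaB site in 1 (Ier3) against 5.11%, and GCGTGGGCG of EGR proteins and TGATGCAA of ATF4 in 0 of the 41 against 1.15% and 0.610% of all windows. The median G+C content was 64.3% in the higher genes and 60.3% in all. These shares are a description of letters in the windows, and no test was made of them.

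A gene of the integrated stress response, which runs from phosphorylated eIF2 alpha to ATF4, had the difference with the smallest p. Ddit3 encodes CHOP, a transcription factor downstream of ATF4 (GRCm38.p6, chr10:127290793-127296291). Its log2 signal was 9.71, 9.75, 9.76 and 9.66 on the control arrays and 10.26, 10.32, 10.26 and 10.30 on the MMS arrays. The groups did not overlap, and the difference of 0.56 ± 0.06 (SE, n = 4 per group) corresponds to 1.48-fold (limma adjusted p = 4.06e-06). Atf4 itself (chr15:80255184-80257545) read 11.38, 11.46, 11.47 and 11.53 in control and 11.91, 11.97, 11.99 and 12.01 after MMS. Its difference was 0.51 ± 0.07 (SE; limma adjusted p = 5.03e-05), again without overlap. The other Atf4 probe set above the expression limit differed by 0.25 ± 0.17 (SE), and the mean of all by 0.30 (limma adjusted p = 0.0367). In control cells at 0 h, before the medium change, the mean of Ddit3 was 10.19 and that of Atf4 11.79. For both genes the control mean at 1 h, 9.72 and 11.46, was thus below that at 0 h, and the MMS mean, 10.28 and 11.97, was close to it. Set against the 0 h control, the differences of 0.09 and 0.18 were not called (limma adjusted p = 0.413 and 0.0942).

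Ppp1r15a encodes GADD34, which directs protein phosphatase 1 to eIF2 alpha and so ends the same signal (chr7:45522917-45526268). It read 9.58, 9.35, 9.49 and 9.30 in control and 9.96, 10.01, 10.05 and 9.79 after MMS, a difference of 0.52 ± 0.09 (SE; limma adjusted p = 0.00408). The 4 MMS arrays all lay above the 4 controls, and the control mean had itself gone from 8.63 at 0 h to 9.43. Ppp1r15a is on the list of GADD45, BTG and TOB genes and not on that of ATF4 and the integrated stress response. Of the 27 genes tested on the latter, 2 were called higher (Ddit3 and Atf4), against 0.361% of all genes, and none lower. The median difference was 0.05 against -0.003 over all genes. Atf5, a further transcription factor of the route (0.44), and Cebpb (0.35) were not called although their arrays did not overlap (adjusted p = 0.125 and 0.237, limma). Atf3, a repressor of the ATF family, read 11.07, 11.10, 11.19 and 11.22 in control and 11.71, 11.61, 11.57 and 11.49 after MMS. Its difference of 0.45 missed the threshold in the model of all arrays (limma adjusted p = 0.618, SE 0.20) and passed it in a model of the 8 arrays at 1 h alone (adjusted p = 0.0174). Most of the change in Atf3 was shared by both groups, since its 0 h arrays lay between 6.05 and 7.52.

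Of the genes for the GADD45 proteins, small partners of MAP kinase kinase kinases and cell cycle regulators, Gadd45a and Gadd45b were called higher. Gadd45b (chr10:80930091-80932204) read 10.00, 10.14, 10.00 and 10.20 in control and 10.63, 10.77, 10.71 and 10.48 after MMS, a difference of 0.56 ± 0.08 (SE; limma adjusted p = 0.000227). The other Gadd45b probe sets differed by -0.0032 and 0.29, and the mean of all by 0.28 (limma adjusted p = 0.00878). Gadd45a (chr6:67035096-67037407) read 7.54, 7.58, 7.69 and 7.41 in control and 8.24, 8.47, 8.20 and 8.07 after MMS, a difference of 0.69 ± 0.13 (SE; limma adjusted p = 0.00530). No MMS array of either gene fell within the controls. For Gadd45a the 0 h arrays spanned 7.56 to 8.49, so the MMS values overlapped those before the medium change, and against 0 h the difference of 0.29 was not called (adjusted p = 0.176, limma). Gadd45g, at 0.32, missed the threshold (limma adjusted p = 0.0685). On the list of GADD45, BTG and TOB genes, 3 of 10 tested were higher (Gadd45a, Gadd45b and Ppp1r15a), against 0.361% of all genes, and none was lower. There 9 differences were positive, as 6905 of the 14135 over all genes were, and the median was 0.25.

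**Figure D2:**
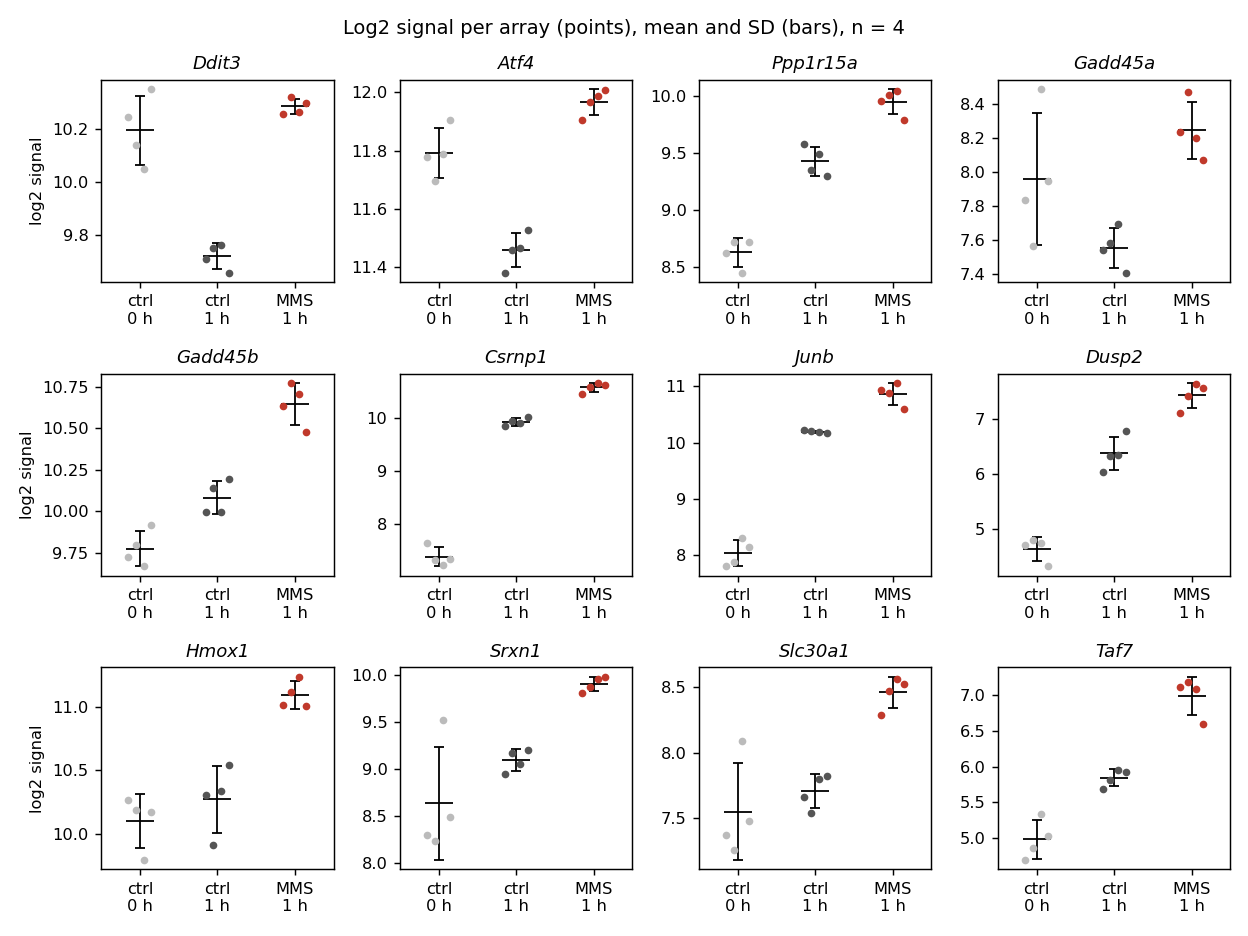
Log2 signal of 12 genes on each array (points) of control at 0 h, control at 1 h and MMS at 1 h, with the mean and SD of the 4 arrays as bars. Each panel has its own axis, which does not start at 0, and in all 12 genes the MMS points lie above the control points at 1 h.

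Immediate early genes, which need no new protein synthesis for their transcription, were already high in control cells at 1 h, and part of them were higher still after MMS. Csrnp1, a nuclear protein of the AXUD1 family (chr9:119971163-119984742), went from a mean of 7.37 at 0 h to 9.92 in control. It then read 9.84, 9.94, 9.91 and 10.01 in control and 10.46, 10.58, 10.66 and 10.62 after MMS, a difference of 0.65 ± 0.08 (SE; limma adjusted p = 4.19e-05). The groups were far apart compared with the spread within either. A dimmer probe set of Csrnp1 differed by 0.14, and the mean of both by 0.40 (limma adjusted p = 0.00320). Junb, an AP-1 subunit (chr8:84976909-84978748), read 10.22, 10.20, 10.18 and 10.18 in control and 10.93, 10.88, 11.06 and 10.59 after MMS. Its difference of 0.67 ± 0.13 (SE; limma adjusted p = 0.0124) lost the call without MMS replicate 3 (0.0967), control replicate 3 (0.0507) or MMS replicate 1 (0.0501).

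Junb was the 1 member of the AP-1 family called among 7 tested, against 0.361% of all genes called higher. All 7 differences were positive, as 6905 of the 14135 over all genes were, with a median of 0.29. Fosb (0.54), Fosl1 (0.30) and Jund (0.29) had MMS arrays above all controls but were not called (limma adjusted p = 0.187, 0.215 and 0.242). The classical pair showed almost no difference at this time. Fos read 11.39, 11.35, 11.44 and 11.23 in control and 11.50, 11.56, 11.35 and 11.48 after MMS, a difference of 0.12 (limma adjusted p = 0.995). Jun differed by 0.04 (adjusted p = 0.995) and Egr1, a zinc finger factor of the same early wave, by 0.07 (adjusted p = 0.963, both limma). These 3 genes had means at 0 h of 8.09, 9.26 and 11.08, against 11.35, 11.12 and 13.18 in control at 1 h.

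On the list of early response transcription factors and related genes, 4 of 29 tested were higher (Csrnp1, Trib1, Ier3 and Ier5), against 0.361% of all genes, and none was lower. There 24 differences were positive, as 6905 of the 14135 over all genes were, and the median was 0.24. Trib1, a pseudokinase, differed by 0.53 ± 0.10 (SE; limma adjusted p = 0.00667) and lost the call without MMS replicate 3 (0.0580) and with the mean of its probe sets (0.33, adjusted p = 0.0662). Ier3, an inhibitor of apoptosis induced early, and Ier5 differed by 0.38 and 0.26 with arrays that did not overlap, and the mean of the Ier5 probe sets by 0.51 (limma adjusted p = 0.000451). On the brightest probe set their calls were among the least stable: Ier3 was called in 0 of the 8 fits without 1 array (highest adjusted p = 0.173) and Ier5 in 1, the fit without control replicate 4 (highest adjusted p = 0.278, both limma). Among the members that missed the threshold were Egr4 (0.53, adjusted p = 0.0633) and Maff (0.42, adjusted p = 0.0567), both by limma and both with MMS arrays above all controls.

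Arc and Npas4 are best known as activity-induced genes of neurons. Arc had a mean of 5.93 at 0 h, then read 9.88, 10.10, 9.92 and 10.40 in control and 10.72, 10.76, 11.02 and 10.74 after MMS, a difference of 0.73 ± 0.14 (SE; limma adjusted p = 0.00667). Without MMS replicate 3 the Arc difference was 0.66 (adjusted p = 0.0580). Npas4, at 4.82 at 0 h, read 6.56, 6.66, 6.21 and 6.98 in control and 7.16, 7.0, 7.5 and 7.56 after MMS. The highest control and the lowest MMS array nearly met, and the call (0.70, limma adjusted p = 0.0225) held in 3 of the 8 fits without 1 array. It ended without control replicate 1, 2 or 3 or without MMS replicate 3 or 4, with an adjusted p of up to 0.169. The neural marker mean lay between 5.56 and 5.75 on the 8 arrays. Gem, a small GTP-binding protein, rose from 4.68 at 0 h to 6.80 in control and 7.51 after MMS, a difference of 0.71 (limma adjusted p = 0.00714; 0.0590 without control replicate 1).

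The calls on the MAP kinase feedback list were dual specificity phosphatases, which remove phosphate from MAP kinases in the nucleus. Only their mRNA was measured. Dusp2 (chr2:127336159-127338377) read 6.04, 6.33, 6.35 and 6.77 in control and 7.10, 7.41, 7.62 and 7.55 after MMS, 2.07-fold higher (1.05 ± 0.16, SE; limma adjusted p = 0.000628). Dusp1 was bright in all groups, with 12.60, 12.63, 12.80 and 12.60 in control and 12.99, 13.08, 13.07 and 12.95 after MMS. The Dusp1 arrays did not overlap, and its difference of 0.37 ± 0.07 (SE; limma adjusted p = 0.0146) was called in 3 of the 8 fits without 1 array. Dusp5 differed by 0.53 ± 0.11 (SE; limma adjusted p = 0.0133) and was called in 4 of the 8. The Dusp1 call ended without control replicate 1, 2 or 4 or MMS replicate 2 or 3 (highest adjusted p = 0.0831) and the Dusp5 call without control replicate 1 or 3 or MMS replicate 1 or 3 (0.110, both limma). These 3 phosphatases were the called members among 17 tested on the list, against 0.361% of all genes called higher, none was lower, and the median was 0.16. Spry4, an inhibitor of receptor tyrosine kinase signalling (0.59), and Dusp4 (0.50) missed the threshold with adjusted p of 0.158 and 0.180 (limma).

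Among NRF2 targets, 3 of 32 tested were higher, against 0.361% of all genes, and none was lower. The median difference of 0.04 was close to that of all genes. Hmox1, heme oxygenase 1 (chr8:75093618-75100593), read 10.31, 9.91, 10.34 and 10.54 in control and 11.01, 11.12, 11.24 and 11.01 after MMS, 1.77-fold higher (0.82 ± 0.15, SE; limma adjusted p = 0.00437). Every MMS array was above the highest control. Srxn1, sulfiredoxin, which restores oxidised peroxiredoxins (chr2:152105524-152111376), read 8.95, 9.17, 9.06 and 9.20 in control and 9.81, 9.88, 9.96 and 9.99 after MMS. The Srxn1 difference was 0.81 ± 0.17 (SE; limma adjusted p = 0.0150), and its other 3 probe sets differed by 0.26, 0.71 and 0.75. The call ended without control replicate 1 or 3 or MMS replicate 3 or 4 (highest limma adjusted p = 0.0834). Mafg, a small MAF protein that pairs with NRF2, differed by 0.56 ± 0.11 (SE; limma adjusted p = 0.00746), and its call ended without control replicate 1 (0.0590) or MMS replicate 3 (0.0670). Its control mean at 1 h, 8.63, was below the 8.99 of 0 h.

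The other NRF2 targets tested were not called. Nqo1, the quinone reductase often used to report NRF2 activity, read 6.62, 6.56, 6.60 and 6.44 in control and 6.63, 6.77, 6.51 and 6.46 after MMS, with overlapping groups and a difference of 0.03 (limma adjusted p = 0.995). Of 13 genes of glutathione synthesis and cysteine supply, none was called in either direction (limma). At an unadjusted p under 0.05, 5 were higher and 0 lower, against 4.3% and 3.16% of all genes. Gclc, the catalytic subunit of the enzyme that starts glutathione synthesis, read 8.81, 8.78, 8.84 and 8.81 in control and 9.06, 9.10, 9.08 and 9.08 after MMS. These groups did not overlap, and the spread within each was small. The Gclc difference of 0.27 had an adjusted p of 0.216 in the model of all 35 arrays, whose SE of 0.08 draws on all groups, and of 0.0367 in the model of the 8 arrays (both limma). Chac1, which degrades glutathione, differed by 0.48 and Glul, glutamine synthetase, by 0.37 (limma adjusted p = 0.175 and 0.666).

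The zinc list had 1 call, Slc30a1, the exporter ZnT1 of the plasma membrane (chr1:191906697-191913248). It read 7.66, 7.54, 7.80 and 7.82 in control and 8.29, 8.47, 8.56 and 8.53 after MMS, 1.69-fold higher (0.75 ± 0.12, SE; limma adjusted p = 0.000744). Among the 7 genes tested on the list of metallothioneins and zinc export, it stood alone, against 0.361% of all genes called higher. The metallothioneins themselves varied among the controls. Mt2 read 9.0, 8.81, 8.32 and 7.76 in control and 9.48, 9.53, 9.79 and 9.13 after MMS, and Mt1 read 10.76, 10.82, 10.12 and 9.55 against 11.04, 11.10, 11.21 and 10.82. For both, all MMS arrays lay above all controls, narrowly, and the differences of 1.01 and 0.73 were not called (limma adjusted p = 0.426 and 0.672).

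Of 36 p53 targets tested, 3 were called higher, against 0.361% of all genes, and none lower, with a median difference of 0.06. Pmaip1 encodes NOXA, a BH3-only protein that promotes apoptosis. It read 10.93, 11.01, 11.04 and 10.97 in control and 11.47, 11.46, 11.57 and 11.41 after MMS, a difference of 0.49 ± 0.09 (SE; limma adjusted p = 0.00408) without overlap. Sesn2, a stress-induced inhibitor of mTORC1, differed by 0.72 (limma adjusted p = 0.0306), but MMS replicate 4, at 8.53, lay within the controls (8.14 to 8.59) while the other MMS arrays lay between 9.22 and 9.47. The Sesn2 call held in 2 of the 8 fits without 1 array, those without control replicate 4 or MMS replicate 4 (highest adjusted p = 0.193). The Sesn2 mean was 9.15 at 0 h, 8.41 in control at 1 h and 9.12 after MMS. Against 0 h its difference of -0.03 was not called (limma adjusted p = 0.949). Epha2, a receptor tyrosine kinase, differed by 0.34 (limma adjusted p = 0.0443), called in 1 of the 8, the fit without control replicate 4 (highest 0.283). Cdkn1a, the p21 inhibitor of cyclin-dependent kinases, read 12.44, 12.52, 12.49 and 12.45 in control and 12.66, 12.62, 12.65 and 12.67 after MMS. Those values did not overlap, and the difference of 0.17 had an adjusted p of 0.552 (limma). Mdm2, the ubiquitin ligase of p53, differed by 0.20 with an adjusted p of 0.349 (limma), also without overlap. The mean of all Cdkn1a probe sets differed by 0.35 and was called (limma adjusted p = 0.00422).

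Genes for repair and for protein folding were not called. None of 19 genes of alkylation and base excision repair passed in either direction (limma), and at an unadjusted p under 0.05 the count was also 0. Over all genes, 4.3% were higher and 3.16% lower at that unadjusted p. Mgmt, which removes methyl groups from guanine, read 7.87, 8.15, 7.92 and 7.78 in control and 7.89, 8.06, 7.93 and 7.91 after MMS, with overlapping groups. None of 26 genes on the list of endoplasmic reticulum chaperones and the unfolded protein response was called (limma; 2 higher and 1 lower at an unadjusted p under 0.05). That list leaves out Ddit3, Atf4 and Ppp1r15a, which stand on other lists and were called higher. The paper counts CHOP, the product of Ddit3, as part of this response. Hspa5, the chaperone BiP, differed by 0.04 (adjusted p = 0.969). None of 22 heat shock genes was called (limma; 4 higher and 0 lower unadjusted), and Hspa1a, the inducible HSP70, differed by 0.12 (adjusted p = 0.868). Among heat shock genes with MMS arrays above all controls were Hspb1 (0.33) and Dnajb1 (0.28), with adjusted p of 0.187 and 0.119 (limma).

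The remaining lists held 1 call in all. It was Taf7, a subunit of the general transcription factor TFIID, among 30 general transcription factors whose median was -0.01. Taf7 read 5.69, 5.81, 5.95 and 5.93 in control and 7.11, 7.19, 7.09 and 6.60 after MMS, 2.22-fold higher (1.15 ± 0.16, SE; limma adjusted p = 0.000196). MMS replicate 4 was lower than the other MMS arrays and still above every control. Its other probe set above the expression limit differed by 0.59, and the mean of its probe sets by 0.67. No member of the lists of NF-kappaB targets (28 tested), mRNA decay factors (18), ID genes and BMP feedback (14), SRF and YAP targets (23), SR splicing factors (18) or replication and mitosis (34) was called in either direction (limma). At an unadjusted p under 0.05 these lists held 5, 1, 4, 1, 3 and 0 higher and 1, 2, 0, 0, 0 and 0 lower genes in that order, against 4.3% and 3.16% of all genes. Zfp36, tristetraprolin, which destabilises AU-rich mRNAs, differed by 0.58 (limma adjusted p = 0.112). Of the 34 replication and mitosis genes 27 had negative differences, as 7230 of the 14135 genes tested had, with a median of -0.05.

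**Figure D3:**
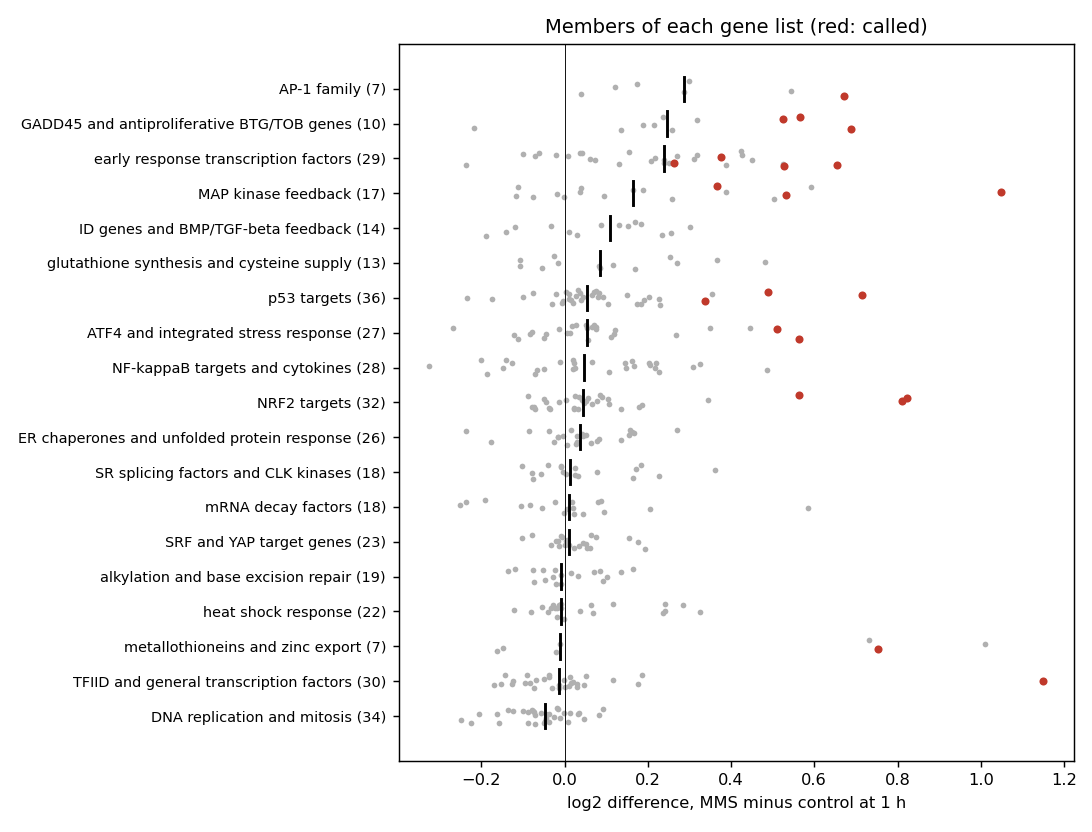
Log2 difference of MMS minus control at 1 h for every tested member of 19 gene lists, with the number tested in brackets. Red points are genes called by limma, grey points are not called, black bars are list medians, and lists are ordered by median, from 0.29 for the AP-1 family to -0.05 for DNA replication and mitosis.

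Of the 51 higher genes, 30 are on none of the pathway lists. Phf13, Rcan1, Zfand2a, Snhg16, Brd2 and, at 8 h, Klhl21, Vasp, Insig1 and Sertad3 were named after their values were seen. Phf13, a reader of methylated histone H3 (chr4:151989631-151996179), read 8.02, 8.15, 8.11 and 8.26 in control and 8.60, 8.71, 8.77 and 8.67 after MMS (0.55 ± 0.07, SE; limma adjusted p = 4.19e-05). Rcan1, an inhibitor of calcineurin (chr16:92391951-92466169), read 9.62, 9.70, 9.78 and 9.78 in control and 10.28, 10.29, 10.26 and 10.29 after MMS (0.56 ± 0.08, SE; limma adjusted p = 0.000152). The MMS arrays of Rcan1 were close to one another, and none overlapped the controls. Zfand2a, an arsenite-induced partner of the proteasome (chr5:139471216-139484491), differed by 0.46 ± 0.08 (SE; limma adjusted p = 0.00408) and on its other probe sets by 0.36, 0.22 and -0.071. Snhg16, a long noncoding RNA that hosts small nucleolar RNAs, differed by 0.50 ± 0.08 (SE; 0.00277). Brd2, a bromodomain protein that binds acetylated histones, read 10.59 to 10.62 in control and 11.05 to 11.33 after MMS (limma adjusted p = 0.00746; 0.0580 without MMS replicate 3).

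Ccdc71l (chr12:32378789-32382943) read 8.32, 8.49, 8.60 and 8.69 in control and 9.47, 9.54, 9.54 and 9.74 after MMS, 2.07-fold higher (1.05 ± 0.16, SE; limma adjusted p = 0.000628). With Csrnp1 it kept its call under all 23 alternative settings run. Lce1f, a late cornified envelope gene of skin, read 5.65, 5.54, 5.71 and 5.60 in control and 6.56, 6.96, 6.87 and 7.30 after MMS, the largest difference of all called genes at 1.29 ± 0.26 (SE; limma adjusted p = 0.0146). The Lce1f call ended without control replicate 2 or MMS replicate 2, 3 or 4 (highest adjusted p = 0.0684), and the stratified epithelium marker mean was 5.27 to 5.56 in control, 5.98 on MMS replicate 3 and 5.30 to 5.37 on the other MMS arrays. The part of those markers in the Lce1f difference was not tested. The mean of both Lce1f probe sets differed by 0.85. Il11, a cytokine of the IL-6 family, read 6.65, 6.28, 6.49 and 6.66 in control and 6.98, 7.16, 7.57 and 7.67 after MMS (0.83 ± 0.16, SE; limma adjusted p = 0.00714; 0.0580 without MMS replicate 3).

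Several calls rest on dim or discordant probe sets. H3f3b, a gene for the replacement histone H3.3, was read by a probe set with means of 5.02 in control and 6.09 after MMS, and its MMS arrays spread from 5.52 to 6.89 (1.07 ± 0.20, SE; limma adjusted p = 0.00605). Usp17la, a deubiquitinating enzyme gene, was at 3.97 in control, under the limit of 4.40 used to select genes, and at 4.68 after MMS (0.71; limma adjusted p = 0.00437). MMS at 1 h was the only group in which Usp17la reached that limit, so it entered the test through the group where it was high, and its call is given as a description. Tent5c, a poly(A) polymerase, which reached the limit in MMS groups alone, was at 4.24 and 4.93 (0.69; limma adjusted p = 0.0330), called in 1 of the 8 fits without 1 array, the one without control replicate 4 (highest 0.175). The Tent5c call is likewise given as a description. Zbtb7a, a transcriptional repressor, differed by 0.83 on its main probe set (limma adjusted p = 0.0306) but by 0.07 and 0.12 on the other 2 and by 0.34 in their mean. On MMS replicate 4 Zbtb7a read 6.01, within the controls of 5.83 to 6.08, and the call held in 1 of the 8 fits, the one without MMS replicate 4 (highest 0.237). Over all higher genes, 26 had a second probe set above the limit, and of these 41 further probe sets 37 had a positive difference, 30 of them at an unadjusted p under 0.05 (limma), with a median of 0.30. These probe sets read the same RNA on the same arrays that chose the genes, so they are no independent support for the calls. No share over all probe sets is given beside them.

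The lower genes were few. Phxr4 read 8.28, 8.14, 8.11 and 8.31 in control and 7.35, 7.05, 7.27 and 7.71 after MMS, a ratio of 0.55 (-0.86 ± 0.17, SE; limma adjusted p = 0.00905). Its call ended without MMS replicate 2 (0.0688) or MMS replicate 3 (0.0580). Zfp930, a zinc finger gene, differed by -0.60 (limma adjusted p = 0.0133), and its call ended without control replicate 3 (0.101) or MMS replicate 3 (0.0970), or with the mean of its probe sets (-0.39, adjusted p = 0.127). Pdgfra, the alpha receptor of platelet-derived growth factor and a fibroblast marker, differed by -0.50 on its main probe set (limma adjusted p = 0.0317) but by 0.08 and 0.20 on the other 2, and the mean of its probe sets by -0.07. Pvt1, a long noncoding RNA beside Myc, differed by -0.31 (limma adjusted p = 0.0355). The calls of Pdgfra and Pvt1 held in 3 of the 8 fits without 1 array, with an adjusted p of up to 0.237 and 0.190. The Pdgfra call ended without control replicate 1 or 3 or MMS replicate 1, 3 or 4, and the Pvt1 call without control replicate 2 or 3 or MMS replicate 2, 3 or 4.

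Below the threshold, 6 further genes had all MMS arrays below all controls and the largest negative differences among such genes at an unadjusted p under 0.05. Snai2, the transcription factor SLUG of mesenchymal cells, read 10.50, 10.43, 10.55 and 10.39 in control and 10.10, 10.09, 9.83 and 10.19 after MMS (-0.42; limma adjusted p = 0.125). Exo1, an exonuclease of mismatch repair, read 6.22, 6.31, 6.43 and 6.47 in control and 5.86, 5.82, 5.88 and 6.03 after MMS (-0.46; limma adjusted p = 0.187). Npn2 (-0.57), Zfp820 (-0.48), E430024I08Rik (-0.47) and Runx1t1 (-0.45) had adjusted p of 0.134, 0.260, 0.187 and 0.232 (limma).

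At the later times most of the 51 genes differed from their own time-matched controls too. The later arrays also entered the model that set the spread for the 1 h calls, and without the 8 h arrays 41 genes were higher at 1 h, 35 of them among the 51. At 8 h, 42 of the 51 were higher, 4 lower and 5 not called, where 28.7% of all genes were higher and 25% lower. At 24 h, 24 were higher and 11 lower (25% and 19.4% of all genes), and at 72 h, 25 were higher and 3 lower (10.1% and 10.4% of all). The 8 h count was between 41 and 43 under the alternatives that recomputed it. All of these counted the same 51 genes, and those that left out 1 h arrays kept every 8 h array. The count could therefore move little and is no measure of stability. The effect at 8 h exceeded that at 1 h in 25 of the 51 genes and was below it in 10 (limma, difference of differences), where 21.3% and 20% of all genes did so; these differences contain the 1 h arrays that chose the genes.

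Among the 51, Tent5c had the largest difference at 8 h, at 3.88. Tent5c reached the expression limit in MMS groups alone, so its values are a description. Next came Srxn1 and Lce1f at 3.17, Gadd45a at 2.54, Hmox1 at 2.40, Klhl21, an adaptor of the CUL3 ubiquitin ligase, at 2.10, and Ppp1r15a and Taf7 at 2.05, each called (limma). Ddit3 reached 1.90 at 8 h and then lay below control, at -1.08 at 24 h and -0.49 at 72 h. Atf4 was 0.17 at 8 h and -1.10 at 24 h, so its 1 h difference was the highest of the 4 times.

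For 4 of the 51 genes the direction at 8 h was opposite. Npas4 differed by -1.25 at 8 h (mean 5.46 in control and 4.21 after MMS), Sema7a, a membrane-anchored semaphorin, by -1.12, Vasp, a regulator of actin filaments, by -0.99, and Acta1, skeletal alpha actin, by -0.89 (all called, limma). At 1 h the differences had been 0.70, 0.71, 0.41 and 0.39. The Acta1 and Vasp calls at 1 h held in 1 of the 8 fits without 1 array (Acta1 in the one lacking control replicate 4, Vasp in the one lacking MMS replicate 4, highest adjusted p = 0.273 and 0.285), and the Sema7a call ended without control replicate 3 (0.0952) or MMS replicate 3 (0.102). The mean of 8 skeletal muscle markers, Acta1 among them, was 5.74 to 5.89 in control and 5.88 to 5.96 after MMS at 1 h. H3f3b, Usp17la, Trib1, Insig1 and Sertad3 were the 5 genes not called at 8 h.

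**Figure D4:**
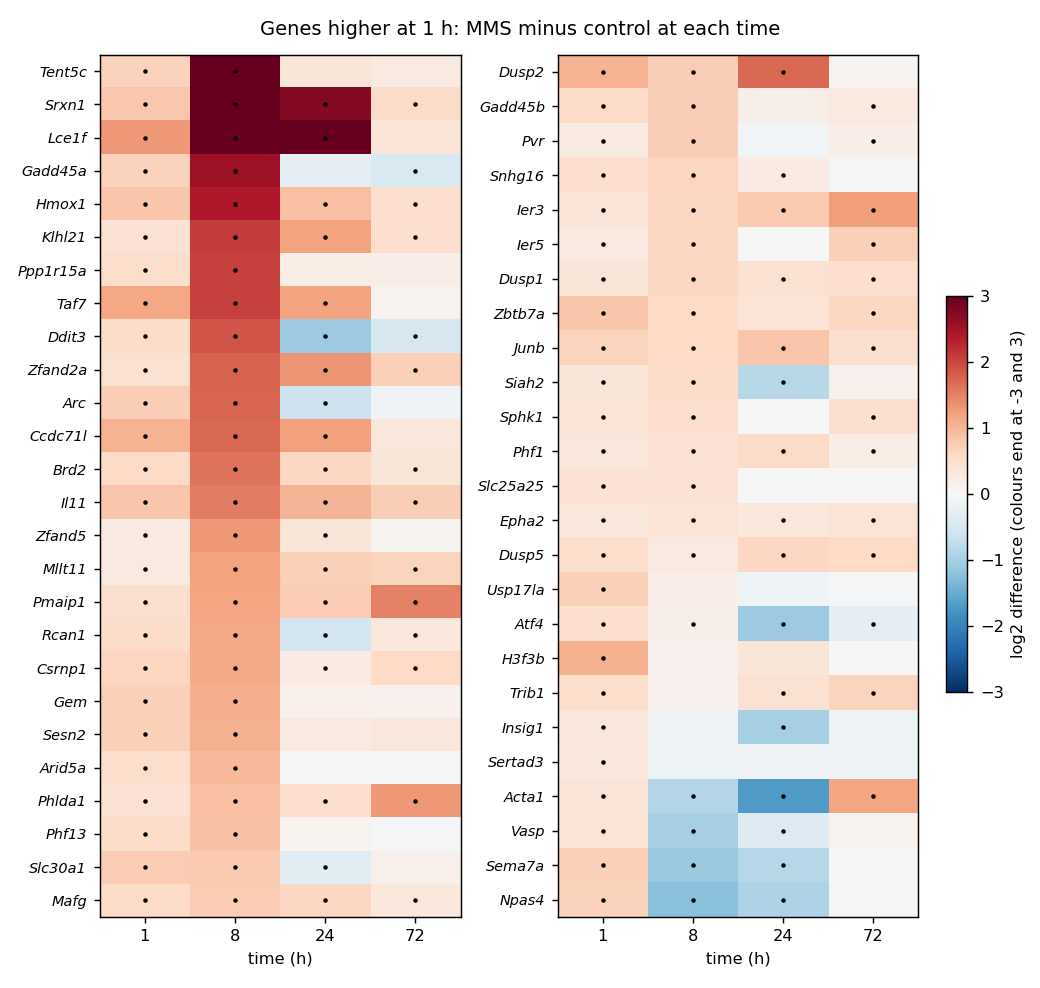
Log2 difference of MMS minus control at 1, 8, 24 and 72 h for the 51 genes higher at 1 h, ordered by the 8 h difference, with colours ending at -3 and 3. A dot marks a difference called by limma, and 42 genes are called higher at 8 h while Acta1, Vasp, Sema7a and Npas4 are called lower.

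The higher genes are short. Their genomic span, from start to end of the RefSeq gene, had a median of 6.96 kb (n = 51), against 21.9 kb for all tested genes with a position (n = 14061). Of the 51, 31 (60.8%) were under 10 kb, as 27.3% of all were, and 1, Rcan1 at 74.2 kb, was over 50 kb, as 26.3% of all were. By span, 0.972% of genes under 5 kb were called higher, 0.636% of those from 5 to 10 kb, 0.535% from 10 to 20 kb, 0.108% from 20 to 50 kb, 0.0519% from 50 to 100 kb and 0 of the 1773 genes over 100 kb. In that last class 28 genes were higher and 75 lower at an unadjusted p under 0.05 (limma). The 554 genes higher at an unadjusted p under 0.05 and not called had a median span of 15.9 kb.

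Over all genes, the median difference went from 0.02 under 5 kb to -0.03 over 100 kb. Single control arrays differed from their own mean by similar amounts. The median of genes over 100 kb, relative to the control mean, was -0.05, -0.03, -0.04 and -0.02 on the MMS arrays and -0.02, -0.03, 0.02 and 0.03 on the control arrays. At 8 h the median difference of genes over 100 kb was -0.31, against 0.10 for those under 5 kb. No test was made of span.

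**Figure D5:**
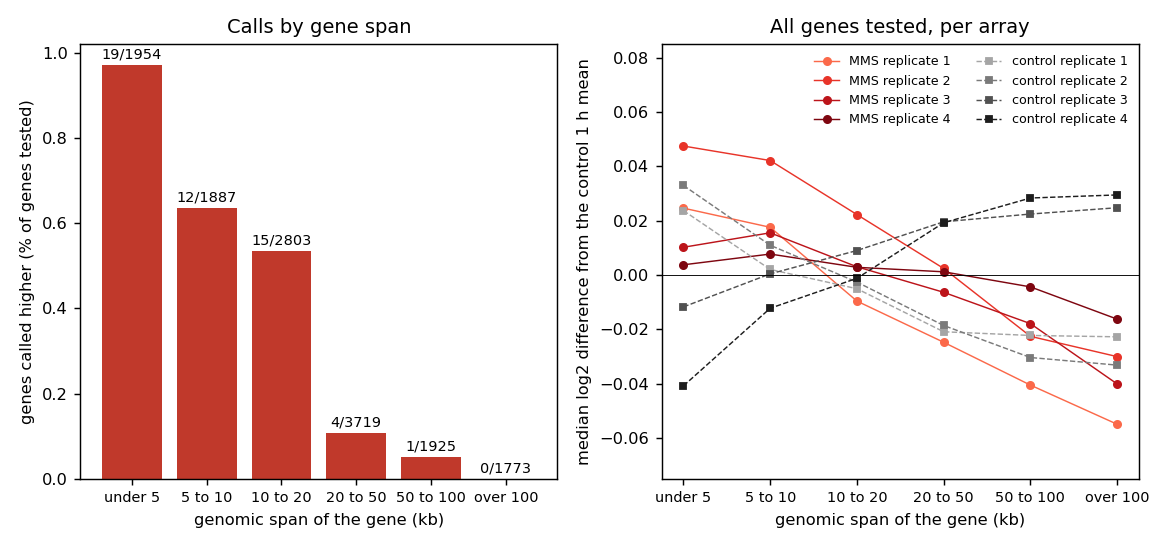
Left, the share of tested genes called higher at 1 h in 6 classes of genomic span (kb), with called and tested genes above each bar. Right, the median log2 difference from the control 1 h mean over all genes of each class, 1 line per array, where the MMS lines (solid) fall with span from 5 to 10 kb onward and the control lines (dashed) fall in replicates 1 and 2 and rise in replicates 3 and 4.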

How the data were processed

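Total RNA of MEFs was hybridised to Affymetrix mouse expression arrays. The authors normalized the arrays together by RMA (version not stated) and deposited log2 signals for 45101 probe sets, with array medians of 4.98 to 5.09. One RMA run evens out overall signal, so changes are relative to all genes, and depth is not defined for arrays. MMS at 72 h has 3 arrays (replicate 4 was not analysed here). Probe sets with several symbols (932) or none (9211) were left out. Symbols were updated by gene identifier to RefSeq (GRCm38.p6), found for 34754 of 34958 probe sets. Each gene took its brightest probe set, and genes with a group mean of at least 4.40 in any group were tested (14135 of 18194; the 40th percentile of the deposited signals).

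Group means were fitted to all 35 arrays (26 residual degrees of freedom) with limma 3.58.1 in R 4.3.3 (with data.table, version 1.17.8). P-values are two-sided, adjusted by Benjamini-Hochberg over all genes, and called under 0.05. The study's own comparison was a permutation analysis of differential expression, whose settings are not given in the sources used here. Named genes are the 20 largest called rises, the 10 largest falls (filled up with uncalled falls whose arrays do not overlap), up to 4 called members per list with the smallest p, and 15 genes named by the study or typical of its pathways, reported whatever their values. Uncalled list members named beside them were picked after their values were seen. The members and lists were chosen with earlier results of these data known. The fit was also run on simulated arrays, with independent noise of the same SD on every array for a given gene. Unequal spread between arrays was not simulated. Alternatives changed the model, weights, normalization, filter, probe set choice, test and reference group, and left out each array.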

Additional observations from a re-analysis of the deposited data

Results flagged for a closer look

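In 5 of 110 groups of 4 arrays examined for the named genes, 1 array stood apart from the other 3 by Dixon's test, and chance alone gives about 1 in 20 groups. Taf7 read 6.60 on MMS replicate 4 against 7.09 to 7.19 on the other MMS arrays. Arc read 11.02 on MMS replicate 3 against 10.72 to 10.76. E430024I08Rik read 4.90 on control replicate 2 against 5.08 to 5.12, Glul 5.81 on control replicate 4 against 6.44 to 6.51, and Jun 10.97 on control replicate 1 against 11.15 to 11.18.

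The MMS effect differed between 1 h and 8 h in 25 of the named called genes (limma, difference of differences, adjusted over all genes). It was larger at 8 h by 3.19 log2 units in Tent5c, 2.36 in Srxn1, 1.87 in Lce1f, 1.85 in Gadd45a, 1.58 in Hmox1, 1.53 in Ppp1r15a, 1.34 in Ddit3, 1.02 in Arc and 0.90 in Taf7. The Tent5c value is a description, since that gene reached the expression limit in MMS groups alone. Smaller increases were found in Il11 (0.70), Pmaip1 (0.70), Ccdc71l (0.67), Csrnp1 (0.49), Ier5 (0.37) and Dusp1 (0.26). The effect moved down by -1.94 in Npas4, -1.83 in Sema7a, -1.28 in Acta1, -0.93 in H3f3b, -0.51 in Usp17la, -0.40 in Trib1 and -0.34 in Atf4. Among the lower genes it moved by -1.24 in Phxr4, 0.97 in Zfp930 and 0.26 in Pvt1. The smallest adjusted p of these 25 differences was 1.4e-13 (Ddit3) and the largest 0.044 (Dusp1). A further limit is that the 1 h arrays both chose the genes and enter the difference.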

How the results depend on the processing

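The 51 higher and 4 lower genes became 24 and 1 with the 12 arrays of 0 and 1 h, 16 and 0 without both arrays numbered 3, 16 and 1 with a plain two-sample test, and 327 and 130 with array weights. Against control at 0 h the counts were 845 and 586, and Zbtb7a (-0.21), Sesn2 (-0.029) and Pvt1 (0.056) turned direction. With the mean of all probe sets 7 genes were lower, and with every probe set on its own 23. Leaving out 1 array gave 20 to 52 higher and 0 to 4 lower genes. A replicate block within the 8 arrays at 1 h gave 21 higher, 17 of them among the 51, and 3 lower, and within all 35 arrays 48 and 4. Hmox1 (adjusted p = 0.0944), Gadd45b (0.0975), Arc (0.127), Mafg (0.145) and Junb (0.0565) were among those not called with the former block (limma). Same-numbered arrays correlated at 0.23, 0.20, 0.31 and 0.09 in their deviations from the group means, so numbers were not taken as pairs. Each MMS array correlated best with the control of its own number, once tied. Control replicate 2 went better with MMS replicate 1 (0.23), and control replicate 4 with MMS replicate 3 (0.13). Where the cause of such a move is not fewer arrays, the cause was not tested. With the 8 arrays at 1 h alone 54 genes were higher, 32 of them among the 51. Of the values of named genes under the alternatives, 986 kept their side of the threshold, 246 lost the call, 28 gained one and 3 reversed. The 986 include uncalled genes with differences near 0 that changed sign and stayed uncalled, such as Jun, Nqo1 and Mgmt. Dim probe sets limit Usp17la and Tent5c.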
